A study of Mus musculus with 16 samples.

Results

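Ganglia contain blood vessels, and 10 genes that mark endothelial cells were followed here in explants of the mouse superior cervical ganglion (SCG), a sympathetic ganglion of the neck. The genes were Kdr, Flt1, Tek, Tie1, Pecam1, Cdh5, Cldn5, Cd93, Adgrf5 and Emcn. Each was taken by an exact match of its symbol to a protein-coding row of the ganglion table, which held 56941 genes, 21684 of them protein-coding. All 10 were found once, all were above 0 in every ganglion library, and all passed the filter on low values, which left 23779 genes for testing. They were chosen as known markers of the cell type, with earlier results of these data known.

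The study asked how sympathetic nerves and pancreatic stromal cells act on each other in culture. Explants came from wild-type C57BL/6J mouse pups at postnatal day 1 to day 4, were loosened with collagenase and were grown in medium containing serum and nerve growth factor on poly-D-lysine and laminin. From 8 to 13 explants shared a well for about 70 hours, either alone (SCG, 3 libraries), below an insert carrying 10000 NIH 3T3 mouse fibroblasts (SCG+MEF, 3 libraries) or below an insert carrying 10000 mPSC1 cells, an immortalized line of mouse pancreatic stellate cells (SCG+PSC, 4 libraries). The stellate cells were sequenced from the same kind of culture, alone (PSC, 3 libraries) or above explants (PSC+SCG, 3 libraries), so 16 libraries were made in all. The explants and the cell lines did not touch. Every ganglion library held all the cells of its explants, the cell lines stand for 1 culture each, and no source ties a library to a litter, so the p-values measure only the spread between these libraries.

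Endothelial cells line blood vessels. They sense vascular endothelial growth factor (VEGF) through the receptor tyrosine kinases encoded by Kdr (VEGFR2, the main signalling receptor) and Flt1 (VEGFR1, which binds VEGF tightly and also exists as a soluble trap). Angiopoietins act on the receptor encoded by Tek (TIE2), with which its relative TIE1 cooperates, and neighbouring endothelial cells are joined by VE-cadherin (Cdh5), PECAM-1 (Pecam1) and the tight junction protein claudin-5 (Cldn5). In a peripheral ganglion the vessels supply neurons and satellite glia.

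Recovered read totals ran from 32013901 to 39197230.0 in the 9 ganglion libraries for which whole reads could be recovered. The sympathetic neuron genes Dbh and Uchl1 lay at 21398 to 45933 and 23564 to 34665 normalized counts in SCG, and the glial gene Cdh19 at 14365 to 17388, so the tissue carried the markers of its label. The 10 endothelial genes summed to 5106 to 6072 normalized counts per SCG library. Ganglion libraries with the same replicate number resembled each other, which is why a second fit carried the number as a block. SCG+PSC replicate 4 has no partner of its number and adds nothing to that blocked fit.

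Levels of different genes can be compared only per length, and on that scale the 10 genes spanned a wide range. Mean levels over the 10 ganglion libraries, in CPM (counts scaled to the library total) per kilobase of exon, were highest for Emcn at 9.23 and Cdh5 at 8.27. They were followed by Adgrf5 at 1.59, Cd93 at 1.35, Flt1 at 1.30, Pecam1 at 0.883, Cldn5 at 0.812, Tie1 at 0.758, Kdr at 0.755 and Tek at 0.284. Emcn encodes endomucin, a sialylated surface protein of venous and capillary endothelium, and it stood far above Pecam1, which marks endothelial cells of every vessel type. Neighbours in this order overlapped over the libraries, except Cdh5, whose lowest library (5.79) was above the highest of Adgrf5 (2.35). The lengths took every exon in GENCODE M39, whereas reads were counted on the M33 basic annotation, so these levels and their order are approximate.

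Promoter sequences are shown for 4 of the genes because they differ in how they moved. Tie1 and Cldn5 followed each other most closely over the libraries, Kdr is the VEGF receptor whose SCG and SCG+PSC values did not overlap, and Emcn went the other way. RefSeq promoter windows on GRCm38.p6 matched 7 of the 10 genes in 8 windows (Adgrf5 has 2), and each stretch below is the 250 bases before the annotated start, 5′ to 3′ on the gene's strand. Capitals mark CAGGAA or CCGGAA, or their reverse complements TTCCTG and TTCCGG. These are core sequences bound by ETS factors, a family with known members in endothelium.
Tie1: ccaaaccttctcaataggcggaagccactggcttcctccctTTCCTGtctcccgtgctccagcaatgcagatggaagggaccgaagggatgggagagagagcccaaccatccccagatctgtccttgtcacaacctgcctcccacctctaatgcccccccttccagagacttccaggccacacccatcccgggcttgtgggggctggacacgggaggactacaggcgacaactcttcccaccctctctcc
Cldn5: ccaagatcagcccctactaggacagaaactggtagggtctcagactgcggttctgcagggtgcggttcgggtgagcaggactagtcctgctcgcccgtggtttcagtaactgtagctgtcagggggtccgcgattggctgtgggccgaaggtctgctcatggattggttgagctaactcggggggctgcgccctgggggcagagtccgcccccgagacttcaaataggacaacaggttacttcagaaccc
Kdr: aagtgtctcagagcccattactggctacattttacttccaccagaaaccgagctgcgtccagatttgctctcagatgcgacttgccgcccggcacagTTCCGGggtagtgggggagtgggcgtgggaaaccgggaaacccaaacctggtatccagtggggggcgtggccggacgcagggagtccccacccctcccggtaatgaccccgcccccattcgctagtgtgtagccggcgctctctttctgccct
Emcn: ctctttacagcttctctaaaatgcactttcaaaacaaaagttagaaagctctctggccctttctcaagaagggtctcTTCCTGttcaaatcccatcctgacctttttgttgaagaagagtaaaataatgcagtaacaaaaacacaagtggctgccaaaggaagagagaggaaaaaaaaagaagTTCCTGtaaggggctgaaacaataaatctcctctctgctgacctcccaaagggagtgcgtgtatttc
The windows lie at chr4:118489850-118490099, minus strand for Tie1, chr16:18776597-18776846, plus strand for Cldn5, chr5:75978456-75978705, minus strand for Kdr and chr3:137340828-137341077, plus strand for Emcn. One or the other of these letter strings was present on either strand in 6 of the 8 windows, and in 35.1% of all 32851 RefSeq windows of the same length. Cldn5 and Flt1 had neither. The SOX string ACAATG (in 10.7% of all windows) and the GATA string AGATAA (in 9.99%) were in none of the 8. These are matches of letters and not measured binding. Emcn, a gene with a lower mean in SCG+PSC, had 2 matches, and Tie1 had 1.

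In SCG+PSC against SCG, 8 of the 10 genes had a higher mean and Flt1 and Emcn a lower one. The log2 fold changes of the 10 ran from -0.48 for Emcn to 1.55 for Cldn5, with a median of 0.833, beside a median of 1.38e-04 over all genes tested. Genes were called at an adjusted p no higher than 0.05 where the log2 fold change was also 0.5 or more in size. With limma and no block, 0 of the 10 were called, and the background was as sparse, at 0.0336% of all genes tested. At an unadjusted p under 0.05 the count was 8 higher (all genes 3.27%) and 1 lower (all genes 1.79%). SCG and SCG+PSC values did not overlap for 4 higher genes, Kdr, Tek, Tie1 and Cd93 (all genes 2.83%), nor for 1 lower gene, Emcn (all genes 2.32%). With the replicate block 2 of the 10 were called, Cd93 and Adgrf5, both higher, where 1.31% of all genes were called. On the recovered reads, edgeR called 0 of the 10 without the block and 2 with it, beside 3 and 327 genes of the whole table. DESeq2 called 1 and 4 of the 10, beside 59 and 421 genes. In bulk RNA, more endothelial cells and more of these transcripts per cell cannot be told apart.

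**Figure D1:**
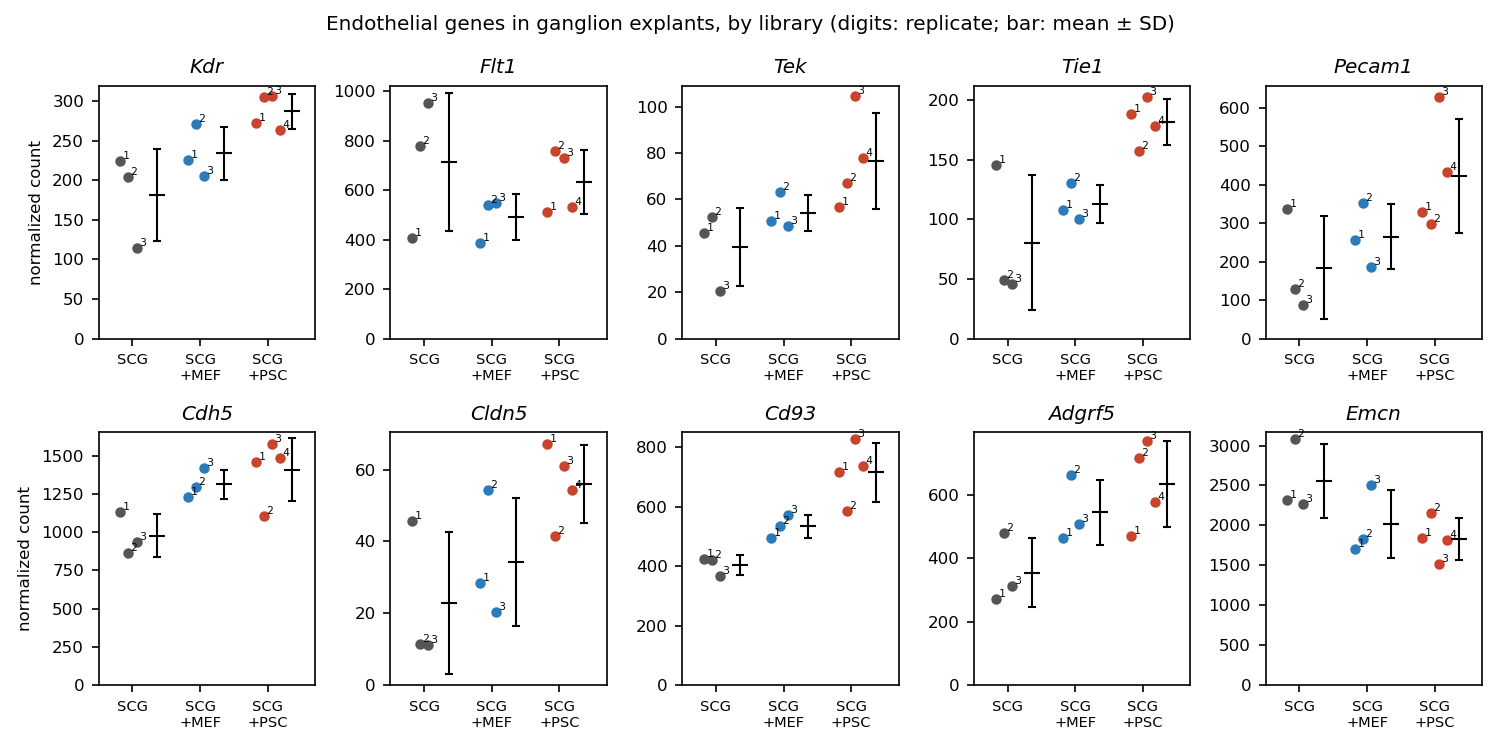
Normalized counts (vertical axis, linear and starting at 0) of the 10 genes in each of the 10 ganglion libraries, with the group on the horizontal axis, the replicate number beside each point and the group mean ± SD as a black bar. All 4 SCG+PSC points of Kdr, Tek, Tie1 and Cd93 lie above all 3 SCG points, whereas the SCG+PSC points of Emcn lie below them and those of Flt1 lie among them.

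Kdr and Flt1, which encode the VEGF receptors, did not move together. Kdr (chr5:76093487-76139884, minus strand, GRCm39) was at 225, 204 and 115 in SCG, 225, 271 and 206 in SCG+MEF and 272, 305, 307 and 263 in SCG+PSC, in order of replicate number. SCG replicate 3 was the lowest library, the 4 SCG+PSC libraries were all above the SCG libraries, and SCG+MEF overlapped both groups. The log2 fold change in SCG+PSC against SCG was 0.72 ± 0.22 (SE, n = 4 and 3), or 1.64-fold, with an unadjusted p of 0.00723 and an adjusted p of 0.818 by limma. With the block the adjusted p was 0.0951, still above the threshold.

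Flt1 (chr5:147498414-147662826, minus strand) was at 408, 777 and 953 in SCG, 384, 541 and 549 in SCG+MEF and 510.3, 759, 729 and 532 in SCG+PSC. SCG replicate 1 was well below the other two SCG libraries, and the 3 groups overlapped. Its log2 fold change was -0.11 ± 0.27 in SCG+PSC against SCG (adjusted p = 1, limma), and -0.47 in SCG+MEF against SCG (95% interval -1.10 to 0.17). With the block this SCG+MEF value had an unadjusted p of 0.00460 and an adjusted p of 0.341 by limma. Between libraries of the same number it was -0.0864, -0.521 and -0.793 for replicates 1 to 3. The sign of the value in SCG+PSC against SCG rested on SCG replicate 3, without which it was 0.144. As a ratio within each library, log2 of Kdr over Flt1 was -1.94 ± 1.09 (SD, n = 3) in SCG and -1.12 ± 0.193 (SD, n = 4) in SCG+PSC. An exact two-sided permutation test gave p = 0.286, and with 4 and 3 libraries it cannot go below 0.0571, so it could not have passed 0.05. The difference of 0.824 became 1.37 without SCG replicate 1 and 0.274 without SCG replicate 3. The SD in SCG was the wider one, since the ratio was -0.857 in replicate 1 and -1.93 and -3.04 in the others.

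The angiopoietin receptor genes were both higher in all 4 SCG+PSC libraries than in any SCG library. Tek (chr4:94627291-94763224, plus strand) was the least abundant of the 10 per length, at 45.6, 52.3 and 20.5 in SCG, 50.7, 63.1 and 48.7 in SCG+MEF and 56.6, 66.9, 105 and 77.7 in SCG+PSC. SCG replicate 3 was again the lowest and SCG+PSC replicate 3 the highest. Tek differed by 1.0 ± 0.33 on the log2 scale (adjusted p = 0.851, limma), or 0.299 with the block.

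Tie1 (chr4:118328385-118347261, minus strand) was at 146, 49.5 and 46.1 in SCG, 107, 131 and 100.3 in SCG+MEF and 188, 157, 203 and 179 in SCG+PSC. SCG replicate 1 was above the SCG+MEF libraries, whereas SCG replicates 2 and 3 were below every other library, and the 4 SCG+PSC libraries were above all 6 others. For SCG+PSC against SCG the log2 fold change was 1.37 ± 0.34, or 2.58-fold (adjusted p = 0.610, limma, and 0.0615 with the block). Among the fits scored gene by gene, Tie1 passed the threshold without block when SCG replicate 1 was left out (1.90, adjusted p = 0.0184). It also passed in DESeq2 with the block (adjusted p = 0.00325), and in no other of these fits. Blocked fits that left out a library were scored only as a count of calls. Whether Tie1 passed in any of them was not checked. The log2 ratio of Tek to Tie1 averaged -0.903 ± 0.890 in SCG and -1.27 ± 0.321 in SCG+PSC, within the spread of the SCG libraries (exact permutation p = 0.514, with the same smallest p). The difference of -0.365 became -0.742 without SCG replicate 1 and 0.126 without SCG replicate 2.

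The junction genes had higher means in SCG+PSC, with the largest fold changes at the lowest counts. Pecam1 (chr11:106543689-106641454, minus strand) was at 338, 129 and 86.1 in SCG, 257, 354 and 185 in SCG+MEF and 328, 299, 628 and 434 in SCG+PSC. SCG replicate 1 was above SCG+PSC replicates 1 and 2, and the remaining SCG libraries were below every other library. Pecam1 differed by 1.37 ± 0.42 on the log2 scale (adjusted p = 0.816, limma). Between libraries of the same number it was -0.0436 for replicate 1, 1.20 for replicate 2 and 2.85 for replicate 3, so the first pair showed almost no difference.

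Cdh5 (chr8:104828231-104871143, plus strand) was at 1135, 863 and 934 in SCG, 1229, 1295 and 1418 in SCG+MEF and 1456, 1108, 1578 and 1488 in SCG+PSC. Its libraries varied least of the junction genes, and SCG+PSC replicate 2 fell just below SCG replicate 1. The log2 fold change in SCG+PSC against SCG was 0.52 ± 0.14 (adjusted p = 0.664, limma, and 0.0634 with the block). In SCG+MEF against SCG it was 0.43, with no overlap between the groups, so that Cdh5 was close to the same level under both kinds of insert cell (0.09 for SCG+PSC against SCG+MEF, 95% interval -0.22 to 0.40).

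Cldn5 (chr16:18595597-18597012, plus strand) was at 45.6, 11.4 and 11.3 in SCG, 28.4, 54.3 and 20.3 in SCG+MEF and 67.1, 41.6, 60.9 and 54.5 in SCG+PSC. These were the lowest counts of the 10 genes, and SCG replicates 2 and 3 were far below replicate 1. The log2 fold change of 1.55 ± 0.49 was the largest of the 10 and also the least precise (adjusted p = 0.827, limma). SCG replicate 1 was above SCG+PSC replicate 2.

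Cd93 and Adgrf5 were the members that passed the threshold once libraries of the same number were compared. Cd93, which encodes a C-type lectin-like surface receptor of endothelial and some myeloid cells (chr2:148270798-148285546, minus strand), was at 425, 422 and 366 in SCG, 494, 535 and 573 in SCG+MEF and 716, 585, 827 and 737 in SCG+PSC. The 3 groups did not overlap at all, with SCG lowest, SCG+MEF between and SCG+PSC highest. The group means were 404 ± 33.5, 534 ± 39.5 and 716 ± 99.9 (SD, n = 3, 3 and 4). The log2 fold change in SCG+PSC against SCG was 0.82 ± 0.14, or 1.76-fold, with an unadjusted p of 7.54e-05 and an adjusted p of 0.138 by limma. With the block it was 0.80 at an adjusted p of 0.0117, and DESeq2 without block gave an adjusted p of 0.00242.

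Adgrf5, an adhesion G protein-coupled receptor of endothelium and lung epithelium (chr17:43671009-43770448, plus strand), was at 272, 478 and 311 in SCG, 463, 660.4 and 508 in SCG+MEF and 468, 715, 769 and 577 in SCG+PSC. The groups overlapped, and replicate 1 was the lowest library of each group. Within replicate numbers the SCG+PSC library was higher each time, by 0.779, 0.578 and 1.30 on the log2 scale for replicates 1 to 3. Over all libraries the log2 fold change was 0.85 ± 0.23 (adjusted p = 0.664, limma), and with the block 0.89 (adjusted p = 0.00973). The number of blocked calls among the 10 was 0 without SCG replicate 3, 1 without SCG+PSC replicate 1, 3 without SCG+PSC replicate 2 and 2 without any 1 of the remaining libraries.

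Emcn (chr3:137046794-137138999, plus strand) was at 2317, 3085 and 2262 in SCG, 1708, 1829.7 and 2501 in SCG+MEF and 1836, 2151, 1514 and 1813 in SCG+PSC. All 4 SCG+PSC libraries were below all 3 SCG libraries, and SCG+MEF overlapped both. Emcn differed by -0.48 ± 0.17 (SE) on the log2 scale in SCG+PSC against SCG (adjusted p = 0.871, limma, and 0.225 with the block). In SCG+MEF against SCG it was -0.35, and in SCG+PSC against SCG+MEF -0.13 (95% interval -0.49 to 0.24).

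The other comparisons set explants with NIH 3T3 cells against explants alone, and explants with the stellate cell line against those with NIH 3T3 cells. SCG+MEF and SCG+PSC were set against the same SCG libraries, so these comparisons are not independent of each other. In SCG+MEF against SCG, 8 of the 10 genes had a higher mean, with a median log2 fold change of 0.487. None of the 10 were called by limma with or without block (0.0126% and 0.16% of all genes). Without block, 3 were higher at an unadjusted p under 0.05, namely Cdh5, Cd93 and Adgrf5 (all genes 1.58%), and 0 were lower (all genes 1.8%). Groups did not overlap for 2 higher genes, Cdh5 and Cd93 (all genes 2.99%). DESeq2 with the block called 1, Adgrf5 (0.639 on the log2 scale, adjusted p = 0.0152), whereas edgeR called 0.

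In SCG+PSC against SCG+MEF, 9 of the 10 genes had a higher mean in SCG+PSC, with a median log2 fold change of 0.387. None were called without block, as was the case for 0% of all genes, and none with it (all genes 0.786%). Without block, Cd93 alone had an unadjusted p under 0.05 by limma (0.41 ± 0.14 on the log2 scale, adjusted p = 1, all genes 2.38%), and neither edgeR nor DESeq2 called any. With the block the adjusted p-values by limma were 0.195 for Flt1 (0.43 on the log2 scale), 0.235 for Cd93 and 0.427 for Tie1. Groups did not overlap for 2 higher genes, Tie1 and Cd93 (all genes 2.47%). Tie1 differed by 0.69 ± 0.34 (95% interval -0.06 to 1.43).

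**Figure D2:**
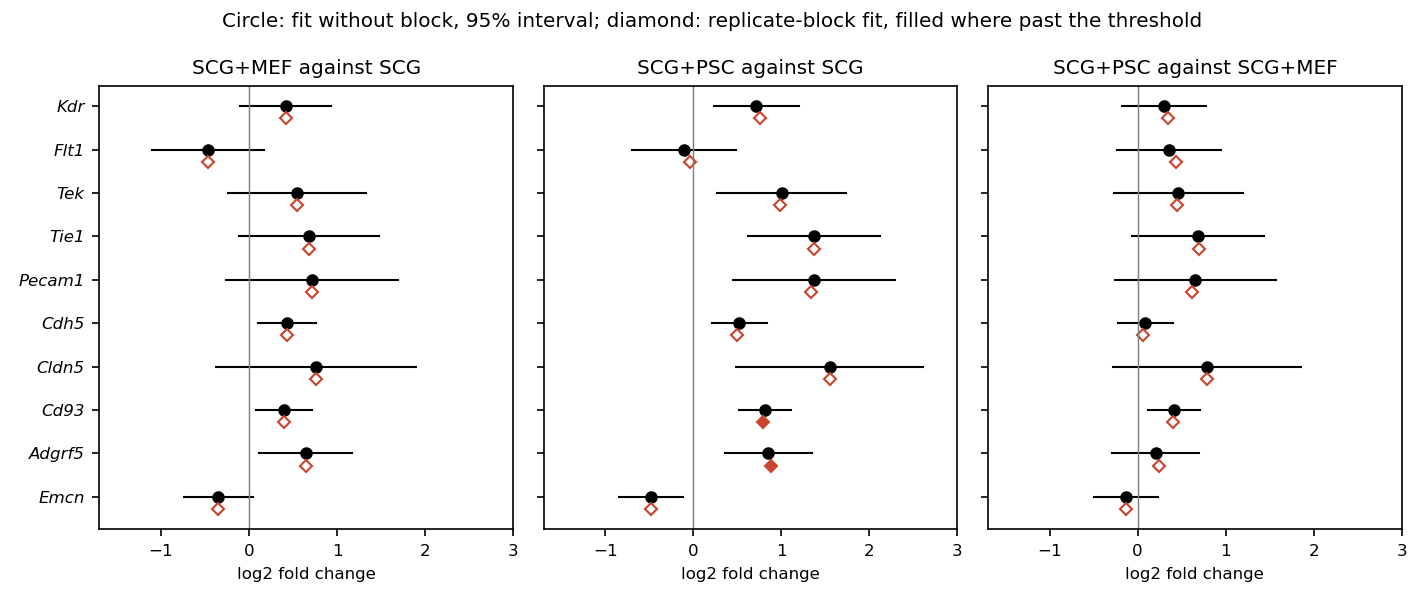
Log2 fold change (horizontal axis) of each gene in the 3 comparisons, as fitted by limma without block (circle, with the 95% interval as a line) and with the replicate block (diamond, filled where past the threshold). Cd93 and Adgrf5 in SCG+PSC against SCG carry the only filled diamonds, and the circles of Flt1 and Emcn lie to the left of 0 in both comparisons with SCG.

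Across the 10 ganglion libraries the genes formed a group of 8 with Flt1 and Emcn outside it. As a description, with group, depth and preparation shared among the libraries, Pearson r of log2 values was 0.965 for Tie1 and Cldn5, 0.945 for Tie1 and Pecam1, and 0.931 for Kdr and Tek (n = 10). After each group mean was subtracted these were 0.931, 0.892 and 0.847, so the pairs also went together around the group means. The ranks within a group were not always alike. In SCG, replicate 1 was highest for Kdr (225) and replicate 2 for Tek (52.3). Against the mean of the other 9 genes, r was 0.915 for Tek, 0.902 for Cd93 and 0.897 for Kdr, but -0.310 for Flt1 and -0.684 for Emcn. Adgrf5 and Cdh5 tracked the others mainly between groups, since r of 0.718 and 0.703 became 0.183 and 0.332 once group means were taken out. Among single pairs, Adgrf5 then had its highest r with Flt1 (0.636) and its lowest with Cdh5 (-0.416).

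The mean standardized level of the 10 genes was lowest in SCG replicate 3 (-1.22 SD units) and highest in SCG+PSC replicate 3 (0.925). Among 12127 other protein-coding genes with a mean of at least 100, those whose pattern over the 10 libraries was most like that score were Dsel, Edn3, Pcyt1b, Pknox1, Ntm, Arpin, Fabp4, Rabl3, Cd34 and Klf5, with r from 0.878 to 0.947. Of these, Cd34 is on the list of other endothelial genes (r = 0.886, and 0.860 without group means). Of the 15 listed endothelial genes abundant enough to enter, 3 ranked within the first 100, Cd34, Esam and Robo4. Eng (r = -0.296) and Plvap (r = -0.553) were among those with negative values.

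A list of 34 further endothelial genes put the 10 in context. Their summed level had a median of 7169 in SCG and 5612 in stellate cells alone, normalized apart, so the list is not specific to endothelium. In SCG+PSC against SCG, 27 of the 34 had a higher mean, as did 11892 of all 23779 genes tested. The median log2 fold change was 0.313, lower than the 0.833 of the 10. At an unadjusted p under 0.05, 11 were higher (all genes 3.27%) and 1 lower (all genes 1.79%), and limma without block called 0. The groups did not overlap for 5 higher genes (all genes 2.83%) and 1 lower gene, Plvap (all genes 2.32%). The 5 were Erg, an ETS transcription factor (14.3 to 47.6 in SCG and 51.7 to 94.0 in SCG+PSC), Mmrn2, a matrix ligand of CD93 (24.7 to 76.9 and 79.1 to 123), Nos3, Icam2 and Gpihbp1, which anchors lipoprotein lipase to capillaries (22.5 to 87.1 and 115 to 162). Gpihbp1 had the highest log2 fold change of these at 1.58 ± 0.41 (adjusted p = 0.664, limma, and 0.0741 with the block).

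Of the 34 genes the blocked fit called only Plvap (all genes 1.31% in SCG+PSC and 0.16% in SCG+MEF against SCG). Plvap forms the diaphragms of fenestrated capillaries, and it was lower. It was at 432, 276 and 369.9 in SCG, 179, 131 and 170.3 in SCG+MEF and 194, 165, 226 and 211 in SCG+PSC. SCG was above every co-culture library, and both kinds of co-culture overlapped. With the block the log2 fold change was -0.86 in SCG+PSC against SCG (adjusted p = 0.0115, limma) and -1.15 in SCG+MEF against SCG (adjusted p = 0.00732). Eng, which encodes the coreceptor endoglin, was at 2124 to 3432 in SCG and 1932 to 3089.8 in SCG+PSC (-0.21 ± 0.19 on the log2 scale), and Arhgef15 at 319 to 570.0 and 388 to 657.

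**Figure D3:**
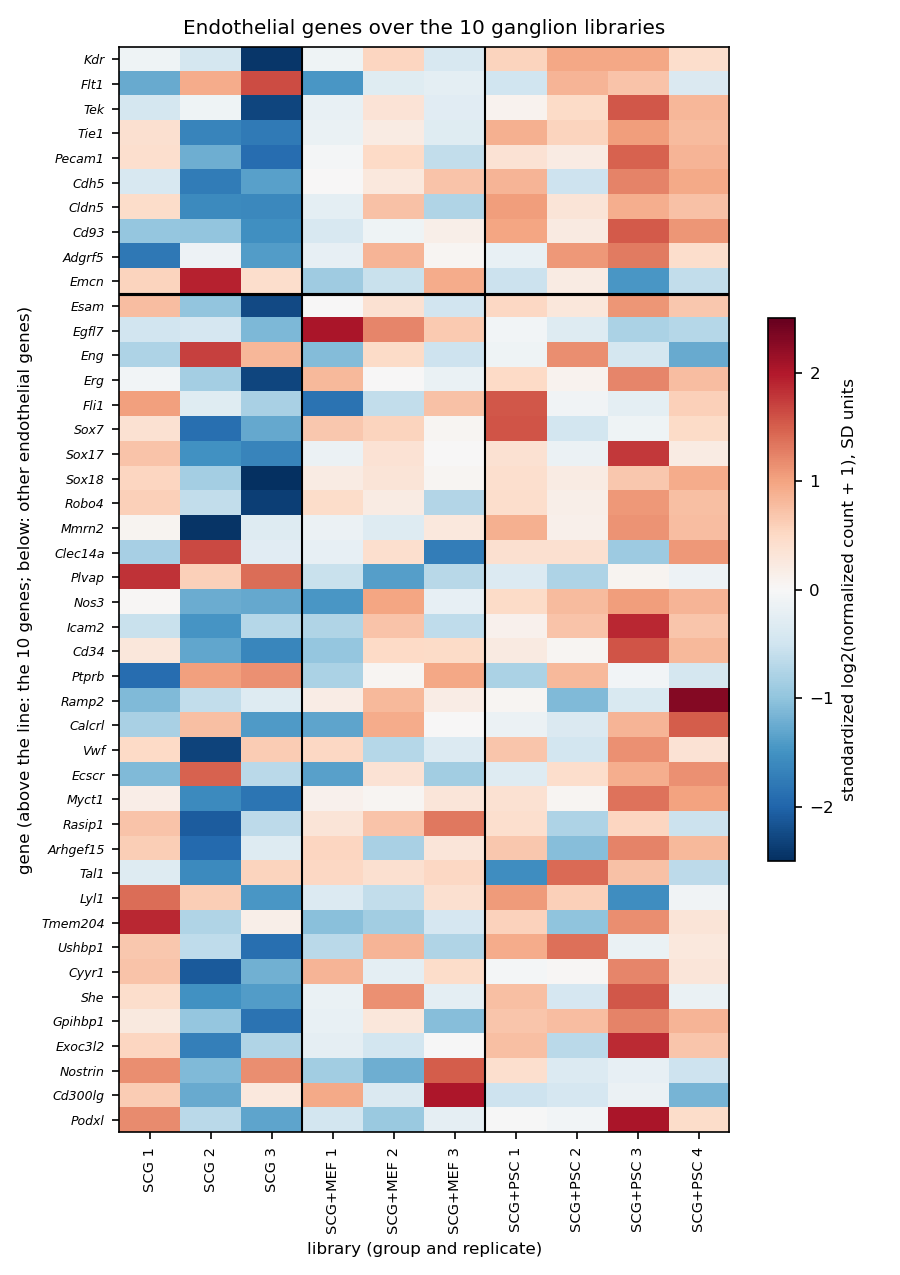
Standardized log2(normalized count + 1) of the 10 genes (above the horizontal line) and the 34 other endothelial genes (below it) in the 10 ganglion libraries, with colour in SD units from each gene's mean over the libraries. SCG replicates 2 and 3 are low (blue) for most rows, and SCG replicate 1 is low for fewer, Adgrf5 and Cd93 among them. Flt1, Emcn, Plvap, Eng and Ptprb are among the rows that run against the others.

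Transcripts of the ligands of the member receptors were present in the ganglion libraries and in the stellate cells on the insert. The 8 ligand genes had a median sum of 5880 in SCG. In the stellate cells, normalized apart, it was 14258 in PSC and 15248 in PSC+SCG. The values below are those of the ganglion libraries, and ligand supplied by the insert cells was not tested. Vegfa, the main ligand of both VEGF receptors, was at 3044 to 3539 in SCG, 3116 to 5150.3 in SCG+MEF and 3519 to 5912 in SCG+PSC (0.37 ± 0.19 in SCG+PSC against SCG). Of the 8 VEGF and angiopoietin ligands, 0 were called in SCG+PSC against SCG by limma with or without block, 0 had an unadjusted p under 0.05, and their median log2 fold change was 0.0518. Values for the others were -0.20 for Vegfb, 0.40 for Vegfc, -0.65 for Vegfd, 0.26 for Angpt1, the activating ligand of TIE2, 0.37 for Angpt2, its context-dependent antagonist, and -0.22 for Angpt4.

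Pgf, placental growth factor, binds the receptor encoded by Flt1 and not that of Kdr. It was at 686, 1219 and 829.9 in SCG, 409, 637 and 439.9 in SCG+MEF and 736, 1097, 705 and 693 in SCG+PSC. Every SCG+MEF library was below every SCG and SCG+PSC library, whereas SCG and SCG+PSC overlapped. With the block it was lower in SCG+MEF than in SCG, at -0.87 on the log2 scale (adjusted p = 0.00348, limma) and was higher in SCG+PSC than in SCG+MEF by 0.77 (adjusted p = 0.0159). Without the block the adjusted p-values were 1 and 1.

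Flt4 (VEGFR3), the third VEGF receptor, was at 91.1, 63.7 and 29.7 in SCG, 62.9, 94.6 and 50.7 in SCG+MEF and 156, 122, 149.6 and 133 in SCG+PSC, and all 4 SCG+PSC libraries were above all 6 others. Its log2 fold change in SCG+PSC against SCG was 1.31 ± 0.34 (adjusted p = 0.664, limma, and 0.0632 with the block). The co-receptor gene Nrp1, also used by neurons, differed little (0.14). Nrp2 was at 7572 to 9222 in SCG and 6114 to 6526 in SCG+PSC, without overlap, and at -0.45 with the block it had an adjusted p of 0.0234 but missed the fold threshold.

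Genes tied to states of endothelium, which other cells can also make, gave few calls. Over all genes the blocked fit called 1.31% in SCG+PSC against SCG, 0.16% in SCG+MEF against SCG and 0.786% in SCG+PSC against SCG+MEF. Of 7 tip cell genes, which mark the leading cells of sprouts, limma without block called 0 in every comparison, and with it 0 in SCG+PSC against SCG and 1 in SCG+PSC against SCG+MEF, Pdgfb (1.12, adjusted p = 0.0346). Esm1 was at 70.7 to 229 in SCG and 207 to 276 in SCG+PSC (0.87 ± 0.34), and Unc5b and Nid2 differed by 0.01 and 0.24 on the log2 scale. Of 9 genes of barrier endothelium 8 were tested, and the blocked fit called the lipid transporter Mfsd2a higher in SCG+PSC than in SCG+MEF (1.5, adjusted p = 0.0316) and the efflux pump gene Abcb1a higher in SCG+MEF than in SCG (0.66, adjusted p = 0.0392). In SCG+PSC against SCG the log2 fold change was 0.21 for Tjp1, a junction scaffold gene, and 0.51 for the glucose transporter gene Slc2a1 (adjusted p = 0.964 and 1, limma). Slco1a4 had values of at most 1.01 and Ocln of at most 3.07, so these barrier markers were at or near 0. Of 11 Notch and arterial genes and 8 venous and activation genes, 0 were called by limma in any comparison with or without block. In SCG+PSC against SCG, 1 and 0 of these were higher at an unadjusted p under 0.05 by limma without block. So were 2 of the 7 tip cell genes and 2 of the 8 barrier genes tested (all genes 3.27%). In SCG+MEF against SCG, 3 of the 11 Notch and arterial genes were lower at that p (all genes 1.8%). The log2 fold change in SCG+PSC against SCG was 0.01 for the ligand gene Jag1, -0.09 for the receptor gene Notch1, -0.06 for Nr2f2, a transcription factor of veins, and -0.02 for Ephb4, a venous receptor. Lyve1 and Ccl21a, markers of lymphatic endothelium, were at most 8.10 and 1.07, although Reln and Prox1 from the same list were at 4279 to 4577 and 371 to 519 in SCG. Several of these lists were also high in stellate cells alone, where Tie1, Cldn5 and Emcn were at 0. Median sums there were 14296 for tip cell, 12107 for venous and activation, 11655 for barrier and 4746 for Notch and arterial genes. In SCG, normalized apart, they were 17506, 4510, 9671 and 24383. The values of these lists thus cannot be assigned to endothelial cells alone.

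Markers of other cells moved with the groups in part, and their part in the values above was not tested. All 8 proliferation genes had a higher mean in SCG+PSC than in SCG, with summed levels of 5921 to 19725 in SCG, 7074 to 21381 in SCG+MEF and 16899 to 28806 in SCG+PSC. The blocked fit called 7 of the 8 higher in SCG+PSC than in SCG (all genes 1.31%) and also 7 higher than in SCG+MEF (all genes 0.786%). For Mki67 the blocked log2 fold changes were 1.34 and 1.08. These blocked values in SCG+PSC against SCG included 1.24 for Top2a, 1.13 for Birc5 and 1.11 for Mcm5, and in SCG+PSC against SCG+MEF 1.05 for Cdk1, 0.98 for Ccnb1 and 0.94 for Mcm5. Replicate 2 had the highest sum in each group.

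Macrophage genes, which matter here because Cd93 is also made by myeloid cells, summed to 9418 to 15126 in SCG, 9929 to 14387 in SCG+MEF and 10277 to 12935 in SCG+PSC, so the groups overlapped. Of 14 macrophage genes 13 were tested and 4 had a higher mean in SCG+PSC. The blocked fit called 1 of them (all genes 1.31%), the mannose receptor gene Mrc1 (1.15, adjusted p = 0.00973). The complement genes C1qb and C1qc differed by -0.22 and -0.07 without block. Csf1r was at 929 to 1349 in SCG and 894 to 1268 in SCG+PSC, and Cd163 was at most 1.01. Among 5 platelet and megakaryocyte genes, the chemokine genes Pf4 (24.6 to 59.7 in SCG and 96.3 to 303 in SCG+PSC) and Ppbp (0 to 1.02 and 4.05 to 24.6) were called higher by the blocked fit. Itga2b, an integrin gene of the same list, was at 49.2 to 66.6 in SCG and 34.5 to 45.1 in SCG+PSC, and the platelet receptor genes Gp9 and Gp1bb were at most 0 and 0.876.

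Pericyte and smooth muscle genes, whose cells wrap the vessels, went the other way in sum, from 68739 to 74327 in SCG to 45814 to 62840.3 in SCG+MEF and 47155 to 64594 in SCG+PSC. The SCG libraries did not overlap the others. None of these 10 genes were called by limma with or without block, and 3 were lower in SCG+PSC at an unadjusted p under 0.05 (all genes 1.79%). Pdgfrb was at 21744 to 27381 in SCG and 18845 to 24640.5 in SCG+PSC, and Acta2 at 3179 to 25068 and 8349 to 20495. Neuronal and glial sums overlapped between the groups, at 86795 to 194095 in SCG and 100971 to 169606 in SCG+PSC for the 10 neuronal genes, and 59087 to 77603 and 62099.6 to 76419 for the 8 glial genes. Slc6a2, the noradrenaline transporter gene, differed by 0.14 ± 0.37 in SCG+PSC against SCG, and the glial gene Fabp7 was called by the blocked fit lower in SCG+MEF than in SCG (-0.50) and higher in SCG+PSC than in SCG+MEF (0.56). Fibroblast genes summed to 323368 to 497453 in SCG and 391620.4 to 492855 in SCG+PSC, and the blocked fit called Lum higher in both co-cultures (0.65 in SCG+PSC and 1.29 in SCG+MEF against SCG, and -0.64 for SCG+PSC against SCG+MEF) and Dcn higher in SCG+MEF than in SCG (0.74). The matrix genes Postn and Col1a2 differed by -0.02 and 0.15 in SCG+PSC against SCG without block.

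**Figure D4:**
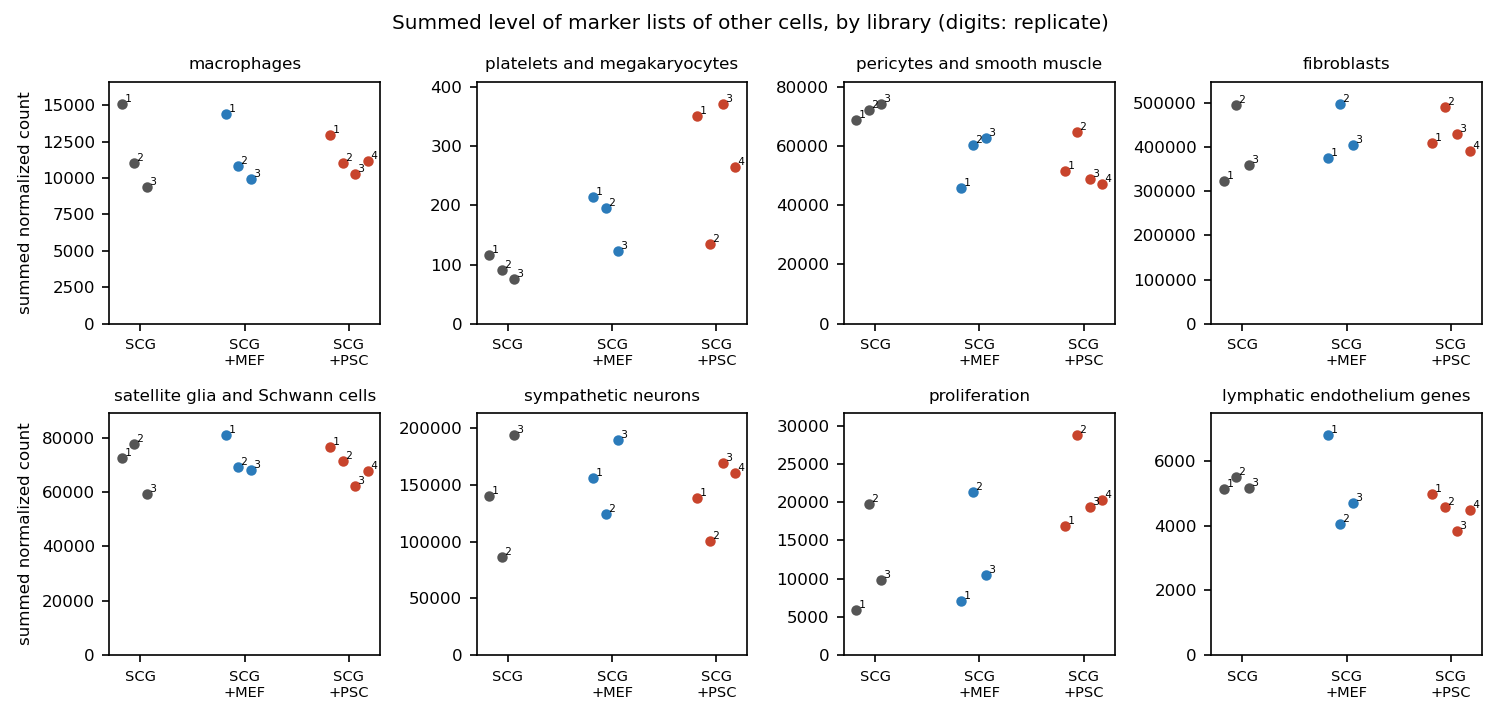
Summed normalized counts (vertical axis, linear and starting at 0) of 8 marker lists in each ganglion library, with the replicate number beside each point. Proliferation genes have a higher median in SCG+PSC with replicate 2 highest in each group, pericyte and smooth muscle genes are highest in the 3 SCG libraries, and macrophage, glial and neuronal sums overlap between groups.

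The stellate cells on the insert were nearly free of several of these transcripts. In the stellate cell table, which was normalized apart from the ganglion table, Tie1, Cldn5 and Emcn were listed at 0 in all 6 libraries. Cdh5 was at 0.987 to 3.19 and Pecam1 at 3.95 to 14.4 normalized counts. Kdr was at 10.9 to 60.2, Flt1 at 43.6 to 87.4, Tek at 27.7 to 141, Cd93 at 26.6 to 102 and Adgrf5 at 42.0 to 171. PSC and PSC+SCG libraries overlapped for Kdr, Tek and Cd93. Adgrf5 was at 42.0 to 72.7 in PSC and 78.0 to 171 in PSC+SCG, and Flt1 at 54.9 to 87.4 and 43.6 to 46.4. These differences were not tested. The share of all genes with such separation was not computed for the stellate cells, so they are given as values only. On the CPM scale, which divides by the library total, Tek reached 3.97 in the stellate cells and 3.06 in the ganglia, and Cdh5 reached 0.0821 and 46.1. NIH 3T3 cells were not among the libraries analysed here.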

How the data were processed

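Libraries were stranded, poly(A)-selected mRNA. Per the labels and the study's methods, the authors aligned reads to GRCm39 with STAR 2.7.10b, counted stranded reads per gene with STAR against the GENCODE M33 basic annotation, and deposited counts divided by DESeq2 size factors (DESeq2 1.38.3 in R 4.2.2), set separately for ganglion and stellate cell libraries. These deposited values are a normalized signal per gene, called normalized counts here. Size factors rest on most genes being unchanged, and all fold changes are relative to that. No column of another series was present, so 0 columns were left out. 

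Values were tested as log2(value + 1) with limma 3.58.1 in R 4.3.3, with 1 mean per group, moderation with an intensity trend, and all 10 ganglion libraries in 1 fit. Genes with a summed value of at least 10 were kept, with Benjamini-Hochberg adjustment over all of them. The pseudocount understates changes of low genes. Limma was used because the files hold normalized values. Whole reads were recovered for 9 ganglion libraries, in which 100.0% of values lay within 0.001 of a whole multiple of the value of 1 read, and SCG+PSC replicate 4 was left out of fits on reads. On these, edgeR 4.0.16 called 3 genes of the whole table in SCG+PSC against SCG without block and 327 with it, and DESeq2 1.42.0 called 59 and 421. All fits were run on simulated data for SCG+PSC against SCG, with the same variability setting for every gene and no replicate effect. That simulation therefore cannot show how the fits, blocked ones included, behave with the spread and replicate structure of these libraries.

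The study modelled an experimental date, but no label ties a library to a date. Replicate numbers come from the labels. Over 12795 genes, deviations from the group means correlated at 0.362 to 0.789 between same-numbered libraries of different groups (9 pairs), and other pairs reached 0.487. Among libraries numbered 1 to 3, each of 18 comparisons matched its own number best, but SCG+MEF replicate 3 was closer to SCG+PSC replicate 4 (0.487) than to SCG+PSC replicate 3 (0.362). As every same-numbered pair was above 0.1, a fit with the number as a block stands beside the fit without it. All 4 SCG+PSC libraries were used.

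The 10 genes and the gene lists were chosen with earlier results of these data known. Named genes were the 10, all VEGF and angiopoietin ligands and co-receptors, and, from each list, up to 4 per direction and comparison past the threshold in either limma fit and up to 2 of the highest mean normalized count. One gene of that rule is not reported here. Others were named after their values were seen: genes with no overlap between groups, Csf1r, Esm1, Uchl1 and markers near 0. Gene positions and exon lengths are from GENCODE M39 on GRCm39, and promoter windows from RefSeq on GRCm38.p6. Alternatives are given in the closing section. Fold changes and p-values of the authors were not used.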

Additional observations from a re-analysis of the deposited data

How the results depend on the processing

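The 10 genes were refitted under other pseudocounts (0.5 and 8), filters, scalings, sets of libraries, thresholds and tools. In SCG+PSC against SCG the number past the threshold, 0 in the fit reported, was 2 with the replicate block (Cd93 and Adgrf5), 2 in edgeR with the replicate block, 1 in DESeq2 (Cd93) and 4 in DESeq2 with the replicate block (Kdr, Tie1, Cd93 and Adgrf5). Leaving out 1 library at a time gave 0 to 1, the 1 being Tie1 without SCG replicate 1, and 0 to 3 with the replicate block, an alternative chosen after seeing the data. In SCG+MEF against SCG it was 1 in DESeq2 with the replicate block (Adgrf5), 0 in every fit that left out 1 library and 0 to 1 when the replicate block was added, the 1 without SCG+PSC replicate 3. In SCG+PSC against SCG+MEF it was 0 under every alternative, the replicate block included. Other pseudocounts, filters, scalings, adjustment over protein-coding genes and a threshold without the fold changed none of these counts.

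Of 720 fold changes of single genes under these alternatives, 2 changed sign, Flt1 in SCG+PSC against SCG without SCG replicate 3 (range over left-out libraries -0.467 to 0.144) and Emcn in SCG+PSC against SCG+MEF without SCG+MEF replicate 3 (range -0.237 to 0.0373). The cause was not tested. The replicate block raised the number of genes called in the whole table in SCG+PSC against SCG from 8 to 312. Leaving out 1 library moved the SCG+PSC against SCG difference in the Kdr to Flt1 log2 ratio from 0.824 to between 0.274 and 1.37, and that in the Tek to Tie1 log2 ratio from -0.365 to between -0.742 and 0.126, a change of sign without SCG replicate 2. Counts were low for Cldn5 and Tek, whose highest ganglion libraries held 67.1 and 105 normalized counts.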
